A study of Homo sapiens and Mus musculus with 9 samples.

Results

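Liver RNA of a fasted mouse group that received a trans-RNA against ATF4 was set directly against liver RNA of a fed group, transcript by transcript. The members were all transcripts with at least 1 RPKM (reads per kilobase of transcript, scaled to the size of the library) in either library, and a transcript missing from a table was taken as 0. This rule took 10347 of the 20100 transcripts listed in the liver tables. The measure was log2((trans-RNA + 1)/(fed + 1)) of RPKM, so that the library of mice that were only fasted did not enter the ratio. The study looks at RNAs that act in trans on translation initiation and holds 9 samples, of which 3 are polyA RNA libraries of wild-type (WT) mouse liver. The fed library has no treatment in its labels. The other libraries used here are labelled fasting, and fasting with transfection of a trans-RNA against ATF4. Strain, age, sex, length of the fast, dose, route of delivery and the number of animals behind a library are not given in the sources used here, and no library of fed mice with the trans-RNA or of fasted mice with a control RNA was used here. The effect of the trans-RNA and of its delivery therefore cannot be told apart.

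Each group had 1 library, so no difference was tested and every count is a rule of size that compares libraries. The fed library held 11475229 reads, the fasted trans-RNA library 12788676 and the fasting library 10807868, and between 97.6% and 97.7% of them lay on listed transcripts. The tables give mouse transcript IDs, and no table used here pairs these IDs with gene names. Transcripts are therefore given by ID or by length and level, the liver was not checked against marker genes, and Atf4 itself was not analysed here.

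In a fed liver, insulin favours the storage of glucose as glycogen and the synthesis of fatty acids. In fasting, glucagon and glucocorticoids turn the organ to the release of glucose from glycogen and from amino acids, to the oxidation of fatty acids and to the production of ketone bodies, and much of this change is made through mRNA levels. ATF4 is the transcription factor through which the integrated stress response changes gene expression. Its mRNA carries upstream reading frames that hold back translation of the main frame until initiation factor eIF2 is phosphorylated, and its targets include genes of amino acid synthesis and transport.

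Fasted trans-RNA liver and fed liver were close for most transcripts. Of the 10347 members, 93.6% lay within 2-fold by this measure. By the same rule the share was 94.3% for fasted trans-RNA over fasting liver and 85.1% for fasting over fed. Closeness of fasted trans-RNA liver was therefore not particular to fed liver. The share of 93.6% depends on the added 1, which understates changes of low transcripts, and 4177 members stayed below 3 RPKM in both libraries. With 0.1 added instead, 852 were at least 2-fold higher and 843 lower. In fasted trans-RNA liver 337 transcripts (3.26%) reached 2-fold above fed and 330 (3.19%) reached 2-fold below it, 6.45% in all, so that 50.5% of the transcripts past 2-fold were higher. The median log2 ratio was -0.08, the middle 50% of transcripts lay between -0.36 and 0.24, and the whole range was -3.19 to 3.68. When the libraries were scaled by the median ratio of transcripts with at least 10 RPKM in both, which shifts all ratios by 0.11, there were 424 higher and 254 lower, or 62.5% higher. The balance of both directions therefore depends on the scaling.

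**Figure D1:**
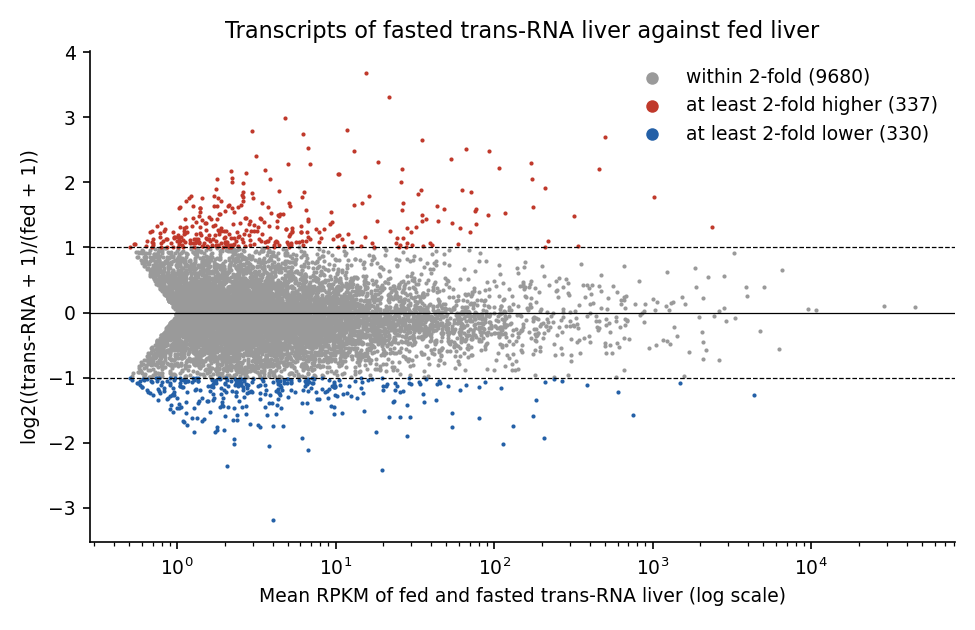
Each point is 1 of 10347 transcripts, with its mean RPKM in fed and fasted trans-RNA liver on a log axis and its log2 ratio on the vertical axis; dashed lines mark 2-fold. The 337 higher transcripts (red) and 330 lower ones (blue) occur at every level, and 32 of them lie past 4-fold on the higher side against 7 on the lower side.

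The largest differences were not evenly split with a pseudocount of 1 and library totals. At 4-fold or more, 32 transcripts were higher in fasted trans-RNA liver and 7 lower, 39 of the 10347 members. This split was not rerun with another pseudocount or scaling. By the same rule of 2-fold, fasting liver against fed liver had 445 higher (4.36%) and 1070 lower (10.5%) among 10200 transcripts, and fasted trans-RNA liver against fasting liver had 456 higher (4.55%) and 119 lower (1.19%) among 10017. These 3 comparisons share libraries in pairs, so their counts are given side by side and are not independent. Median log2 ratios were -0.28 for fasting over fed and 0.18 for fasted trans-RNA over fasting, beside the -0.08 above. Both comparisons with the fasting library were scaled by library totals alone. Their counts were not rerun with another scaling, so how far their splits depend on it was not tested.

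The transcript furthest above the fed level, among the 2454 with at least 10 RPKM in either library, was ENSMUST00000086464, a transcript of 2052 nt. It had 1.40 RPKM in fed liver (33 reads), 41.5 in fasting liver (920 reads) and 29.7 in fasted trans-RNA liver (780 reads). The fed library was low and both libraries of fasted mice were high. Its log2 ratio was 3.68, and the ratio of RPKM without the added 1 was 21.2-fold, with an exact 95% binomial (Clopper-Pearson) interval of 15.0 to 31.0. Such intervals describe the error of counting and nothing else, because 1 library per group holds no spread between animals or preparations. Copies made by PCR were not told apart by molecular identifiers, so the intervals can be too narrow even for that error.

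The next was ENSMUST00000109854, of 1870 nt. It had 3.12 RPKM in fed liver (67 reads), 32.7 in fasting liver (660 reads) and 40.1 in fasted trans-RNA liver (958 reads). Here fasted trans-RNA liver was the highest of the 3 libraries. The log2 ratio to fed was 3.32, and the ratio of RPKM was 12.8-fold (10.0 to 16.7).

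At the other end, ENSMUST00000020439, of 2294 nt, had 33.9 RPKM in fed liver (892 reads), 6.57 in fasting liver (163 reads) and 5.56 in fasted trans-RNA liver (163 reads). The log2 ratio of fasted trans-RNA to fed liver was -2.41, and RPKM without the added 1 was 6.10-fold lower (5.16 to 7.25). ENSMUST00000161074, of 875 nt, had 11.5 RPKM in fed liver (115 reads), 3.07 in fasting liver (29 reads) and 1.88 in fasted trans-RNA liver (21 reads). Its log2 ratio was -2.11, and RPKM without the added 1 was 6.10-fold lower (3.81 to 10.2). For both, the fed library was high and the libraries of fasted mice were low.

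The 15 transcripts furthest above and the 15 furthest below the fed level show how levels in the fasting library lay beside these ratios. The fed library enters the rule and the comparison with fasting alike, so the levels are given as a description. The fasted trans-RNA library chose these transcripts as well. The choice favours levels far from fed in that library and leaves out transcripts that were back at the fed level. Their levels relative to fasting liver describe the chosen transcripts alone. Over the 15 highest, RPKM ran from 0.866 to 133 in fed liver with a median of 5.55, from 3.20 to 1160 in fasting liver with a median of 81.1, and from 11.5 to 865 in fasted trans-RNA liver with a median of 40.1. Their log2 ratios to fed were 2.23 to 3.68. Over the 15 lowest, RPKM ran from 10.3 to 1120 in fed liver with a median of 44.7, from 1.27 to 252 in fasting liver with a median of 18.0, and from 1.88 to 376 in fasted trans-RNA liver with a median of 14.0. Their log2 ratios were -2.41 to -1.58. For all 30 the counting interval lay wholly beyond 2-fold, but the same reads chose the 30, so this is no separate support.

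**Figure D2:**
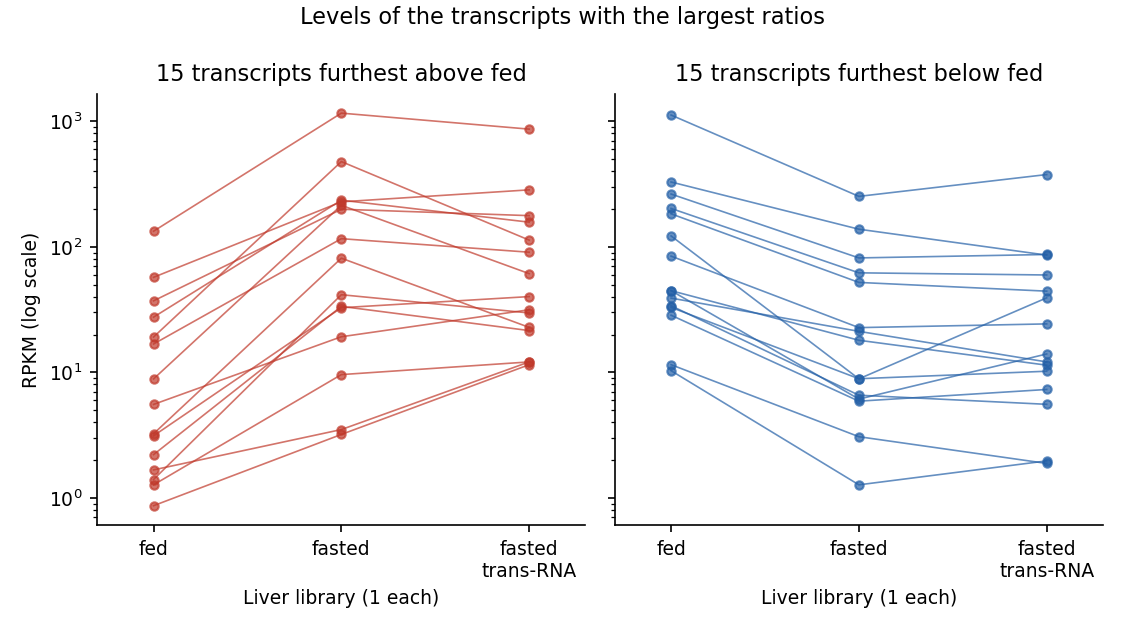
RPKM on a log axis in the fed, fasting and fasted trans-RNA libraries (1 each) for the 15 transcripts furthest above fed (left) and furthest below fed (right); each line joins the values of 1 transcript. From fasted to fasted trans-RNA liver some lines run level and some move further from fed. Others turn back towards fed, such as one that passes from 19.1 over 477 to 113 RPKM.

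These transcripts differed in how far fasted trans-RNA liver was from the fasting level. A transcript of 1815 nt had 19.1 RPKM in fed, 477 in fasting and 113 in fasted trans-RNA liver, and one of 1525 nt had 8.86, 214 and 61.1. A short transcript of 511 nt, placed on chromosome 8, had 3.24, 81.1 and 22.8 in the same order. In these 3, fasted trans-RNA liver held 23.7%, 28.6% and 28.1% of the fasting level and was 5.92-fold (5.33 to 6.60), 6.90-fold (5.83 to 8.21) and 7.04-fold (4.35 to 12.0) above fed. The most abundant of the 15, of 2364 nt, was nearer to fasting, with 133 RPKM in fed, 1160 in fasting and 865 in fasted trans-RNA liver, 74.8% of the fasting level. Besides ENSMUST00000109854, others of the 15 were also highest in fasted trans-RNA liver. Transcripts of 1167, 628 and 14991 nt had 9.59, 19.2 and 228 RPKM in fasting and 12.1, 31.5 and 284 in fasted trans-RNA liver. A further pair was furthest above fasting in proportion. One of 4024 nt on chromosome 7 had 0.866 RPKM in fed, 3.20 in fasting and 11.5 in fasted trans-RNA liver, and one of 1561 nt had 1.67, 3.50 and 12.1.

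The same range of patterns was present among transcripts below fed. One of 2650 nt had 122 RPKM in fed liver, 8.87 in fasting and 39.2 in fasted trans-RNA liver, so that the last held 442% of the fasting level while 3.12-fold (2.93 to 3.33) below fed. One of 3162 nt on chromosome X had 44.7, 6.12 and 14.0 RPKM. The most abundant of the 15, of 3205 nt on chromosome 9, had 1120, 252 and 376 RPKM. Others were at one level in both libraries of fasted mice, such as one of 6848 nt on chromosome 10 with 202 RPKM in fed, 62.0 in fasting and 59.6 in fasted trans-RNA liver. Some were lowest in fasted trans-RNA liver, such as one of 1861 nt with 328 RPKM in fed, 138 in fasting and 85.8 in fasted trans-RNA liver.

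Over the whole sets, the 337 higher transcripts had a median of 1.10 RPKM in fed liver, 3.59 in fasting liver and 4.44 in fasted trans-RNA liver. Together they held 1.25% of the deposited TPM, a measure like RPKM that is scaled to one sum in every library, in fed, 4.41% in fasting and 3.89% in fasted trans-RNA liver. The 330 lower transcripts had medians of 4.43, 1.49 and 1.35 RPKM and held 4.61%, 1.65% and 1.89% of TPM. The median log2 ratio of the higher set was 1.24 for fasted trans-RNA over fed and 1.04 for fasting over fed, and that of the lower set was -1.18 and -1.17. Over all 10347 members these medians were -0.08 and -0.28. The values for fasted trans-RNA over fed chose the sets, and the fed library is in both ratios.

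Most transcripts past 2-fold were of low to moderate level, as were most members. Of the 337 higher ones 94 (27.9%) reached 10 RPKM in either library, 21 reached 100 and 2 reached 1000. Of the 330 lower ones the numbers were 97 (29.4%), 17 and 3. Over all 10347 members they were 2454 (23.7%), 372 and 51, so transcripts past 2-fold reached 10 RPKM slightly more often. The share past 2-fold was largest, 9.18%, for the 850 members with a mean of both libraries below 1 RPKM. These rested on a median of 24 reads in fed and 26 in fasted trans-RNA liver. They passed the rule through 1 library alone, with less than 1 RPKM in the other, so equal levels are left out of this class. Its share is therefore raised by the rule and cannot be set beside the others. The share was 6.75% where the mean was from 1 to 3 RPKM, 5.22% from 3 to 10 and 5.85% from 10 to 30. From 30 to 100 RPKM it was 7.60%, from 100 to 1000 8.19% and above that 8.16%. Mean levels from 1 to 3 RPKM rested on a median of 59 reads in fed and 65 in fasted trans-RNA liver, those from 100 to 1000 RPKM on 4912 and 5511.

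Among the 49 transcripts with a mean of at least 1000 RPKM, 28 were above 0 and 21 below, with a median log2 ratio of 0.05. Of these 2 were at least 2-fold higher and 2 lower. The furthest above had 460 RPKM in fed, 1360 in fasting and 1580 in fasted trans-RNA liver, and the furthest below had 6160, 1390 and 2570. A few transcripts dominate liver RNA. The most abundant one took 17.2% of all reads in fed, 20.3% in fasting and 18.3% in fasted trans-RNA liver, and the 10 most abundant took 34.6%, 40.0% and 37.3%. Among the 20 most abundant in fed liver, 10 were above 0 and 10 below, between -1.26 and 0.65 on the log2 scale.

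Short transcripts passed 2-fold more often than long ones, and they had fewer reads. Under 500 nt, 9.72% of 144 transcripts were higher and 13.2% lower, on a median of 18.5 reads in fed liver. From 500 to 1000 nt the shares were 7.32% and 7.44%, from 1000 to 2000 nt 4.23% and 4.83%, from 2000 to 4000 nt 2.24% and 2.51%, from 4000 to 8000 nt 2.28% and 1.10%, and above that 2.92% and 0.835%, where the median was 339 reads. With at least 300 reads over both libraries, the share past 2-fold was between 3.23% and 5.17% in all 6 length classes. The median length was 1927 nt in the higher set, 1702 nt in the lower set and 2743 nt over all members. Across 7969 transcripts with at least 100 reads, Spearman's rho between the log2 ratio and length was 0.07, a description over transcripts that share 2 libraries.

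**Figure D3:**
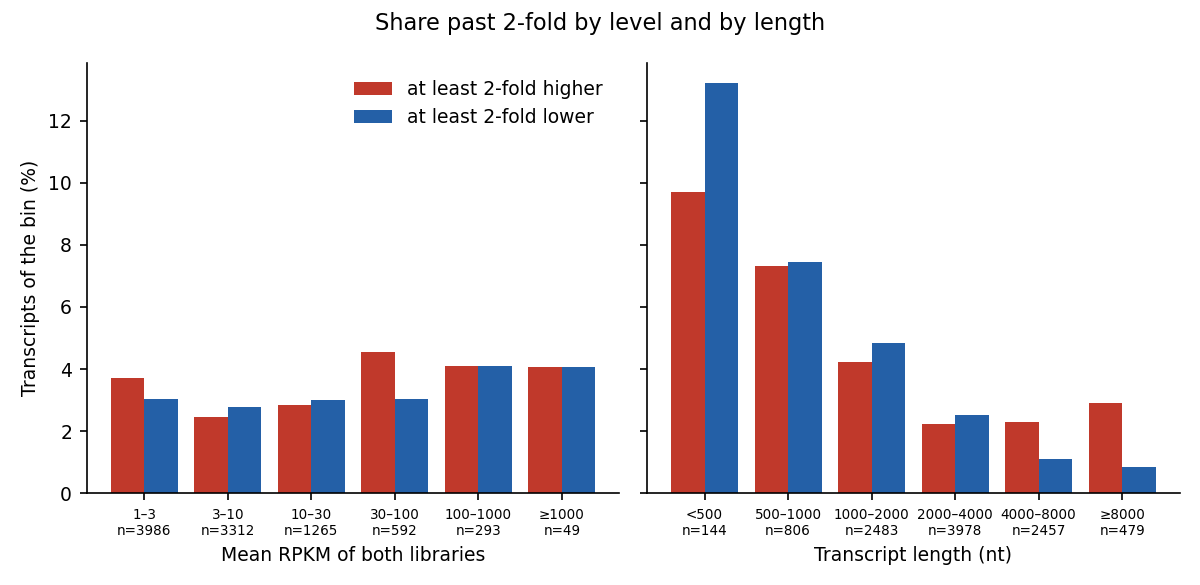
Percent of transcripts at least 2-fold higher (red) or lower (blue) in fasted trans-RNA liver, by mean RPKM from 1 on (left) and by transcript length (right), with the number of transcripts under each bin. By level, both directions together make up 5.22% to 8.19% of a bin shown. The 850 members with a mean below 1 RPKM, 9.18% of them past 2-fold, are not drawn on the left. The rule leaves equal levels out of that class. By length the shares are largest, 9.72% and 13.2%, under 500 nt.

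Counting intervals lay wholly above 0 for 2356 transcripts, wholly below 0 for 3410 and across 0 for 4581. With at least 10000 reads over both libraries the interval lay off 0 for 96.4% of transcripts, from 1000 to 10000 reads for 72.5% and from 300 to 1000 reads for 55.3%. All these intervals were scaled by library totals. The median-ratio scaling shifts every ratio by 0.11, beside a median interval width of 0.07 with at least 10000 reads. The split and these shares therefore depend on the scaling as well. The intervals lay wholly beyond 2-fold for 322 members on the higher side (3.11%) and 292 on the lower side (2.82%), without the added 1. Of the 337 higher and 330 lower transcripts these were 255 and 220, and the interval crossed 0 for 4 and 5. How much of the difference between both libraries belongs to the animals, the preparation of the libraries or the treatment cannot be told apart with 1 library per group.

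A few members had no read in one library. There were 13 with 0 reads in fed liver, with at most 59 reads (5.91 RPKM) in fasted trans-RNA liver. The count of 0 allows up to 3 reads in a library, 0.335 RPKM for that one in fed liver, and it had 4.86 RPKM in fasting liver. A further 20 had 0 reads in fasted trans-RNA liver, with at most 29 reads in fed liver. One of these, of 312 nt on chromosome 13, had 8.10 RPKM in fed liver and no read in either library of fasted mice. At the edge of the rule, 701 transcripts between 1 and 1.2 RPKM in the higher library had a median log2 ratio of -0.002, on a median of 30 reads in fed and 33 in fasted trans-RNA liver. Just outside, 836 transcripts between 0.8 and 1 RPKM had a median of 0.04, on 25 and 28 reads.

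A chromosome could be given for 2832 members, those whose transcript ID also occurs in the deposited reading frame lists of the series, which use mouse IDs (build GRCm39 in the submitters' processing notes). Of these, 44 were at least 2-fold higher and 57 lower, 3.57% in all, which is under the 6.45% of all members. Median log2 ratios of chromosomes 1 to 19 and X lay between -0.16 and -0.02. On chromosome 13, 10 of 109 were past 2-fold (9.17%), and on chromosome 7, 13 of 188 (6.91%). These were the largest shares among the 20 chromosomes and rest on few transcripts. The smallest was 0.0% of 81 on chromosome 18. Both members placed on chromosome Y had reads in each library. One had 5.42 RPKM in fed, 5.39 in fasting and 4.74 in fasted trans-RNA liver, and the other had 4.60, 4.94 and 4.60. Their log2 intervals for fasted trans-RNA over fed, -0.44 to 0.05 and -0.41 to 0.41, both span 0.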

How the data were processed

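PolyA RNA of 3 liver libraries was analysed. The authors deposited RPKM and TPM per transcript, and within a deposited table TPM is a constant multiple of RPKM. Per the submitters' processing notes, STAR 2.7.10a, Bowtie 1.2.3, cutadapt 2.8 and bcl2fastq 2.20.0.422 were used with build GRCm39; their roles are not stated. The counting program, annotation and handling of shared reads are not given in the sources used here. Of the deposited reading frame lists, only positions were used.

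Each RPKM is a whole number of reads over transcript length and library total. The total was found as the common divisor of these quotients, and reads and length followed for 20100 of 20100 transcripts, within a relative tolerance of 2e-13. They are the smallest whole numbers that give the values, so true reads and length can be a multiple. Of 218 complete coding frames, 3 were longer than the recovered length. The steps were tested on simulated data.

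Ratios used a pseudocount of 1, which understates changes of low transcripts. No p-value was computed with 1 library per group. Named transcripts are the 2 highest and 2 lowest with at least 10 RPKM in either library; the planned exclusion of histones and pseudogenes and the 40 planned gene lists need gene names and were not used, and no mouse sequence was printed for want of one. The members and lists were chosen with earlier results of these data known. Python 3.11.15, pandas 2.3.3 and scipy 1.17.1 were used.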

Additional observations from a re-analysis of the deposited data

How the results depend on the processing

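The counts depend most on the pseudocount and threshold. The numbers at least 2-fold higher and lower were 852 and 843 with a pseudocount of 0.1, 65 and 46 with 5, 155 and 158 with at least 5 RPKM in either library, and 1006 and 808 on TPM, where more transcripts pass the same minimum and the pseudocount weighs less. Leaving out the filter cannot change these counts at a pseudocount of 1. At 1.5-fold they were 1087 and 1326, at 4-fold 32 and 7. They stayed within 1.5 times the reported counts by counting interval (322 and 292), without the most abundant transcripts in the scaling (387 and 284), and with at least 50 reads, a setting chosen after seeing the data (245 and 224). Centring on the median gave 416 and 242, or 63.2% higher.

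The median log2 ratio was -0.12 with at least 5 RPKM, -0.027 on TPM, 0 by construction when centred, -0.001 without a filter, -0.093 and -0.040 with pseudocounts of 0.1 and 5, -0.022 without the most abundant transcripts and 0.020 with the median-ratio scaling, so its sign is not settled. The 4 transcripts named by ID kept their direction under the 6 settings run that can change a ratio, ENSMUST00000086464 between 2.44 and 4.31 and ENSMUST00000161074 between -2.55 and -1.26. They were chosen for the largest ratios, and none of these settings could turn the sign of a ratio that large. Only the range of sizes is therefore informative.

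No paired analysis was possible because each group has 1 library. No replicate was left out. Read depth limits transcripts with few reads: 1 read at the median length of 2607 nt is 0.0334 RPKM in fed and 0.0300 in fasted trans-RNA liver.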
